A study of Mus musculus with 24 samples.

Results

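A set of 45 mouse genes of DNA replication and of the step from G1 into S phase was followed in lung tissue of mice treated with HDM or with PBS. The mice were either wild type or IL-13 KO, that is, without the gene of the cytokine interleukin 13. The labels do not spell out HDM, the usual abbreviation for house dust mite, an allergen source. PBS is phosphate-buffered saline. The genes were chosen by name, from the machinery that licenses, unwinds and copies DNA, with earlier results of these data known. A gene was followed through the probe sets annotated to it alone, and where it had several, through the probe set with the highest mean signal over all samples. On this rule 44 of the 45 genes were measured, out of 18193 genes on the arrays, and Chaf1a had no probe set named for it here. Of the 44, 40 passed a filter on low signal (14473 of all genes did), which left out the lowest 30% of probe sets of each array set by mean log2 value. For set A this limit corresponds to a signal near 32, and for set B to 39.2. Cdc6, Gins1, Pole and Ccne2 lay under it and are described separately.

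The 12 samples form 4 groups of 3: wild type with PBS, wild type with HDM, IL-13 KO with PBS and IL-13 KO with HDM. The RNA of each sample was hybridised to a pair of Affymetrix arrays, set A and set B. The KO is labelled as a mouse strain. Strain background, age, sex and the schedule of treatment are not stated in the labels. Whether the 3 samples of a group are 3 animals is not stated either, so p-values here measure only the spread between samples, which may be technical.

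Replication is prepared in G1, when the origin recognition complex, Cdc6 and Cdt1 load the ring of Mcm2 to Mcm7 on DNA. Cyclin E with its kinase then fires these origins as the RB block on E2F factors is lifted, Cdc45 and the GINS complex turn the MCM ring into the working helicase, and polymerases alpha, delta and epsilon copy the strands behind it with the sliding clamp PCNA. E2F factors raise the transcription of many of these genes as cells leave quiescence. Adult lung is mostly quiescent, and in allergic inflammation the dividing cells can include lymphocytes, macrophages, epithelium and other tissue cells.

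E2F factors are known to act at promoters of this gene group. The sequence before the gene start is shown for the 5 genes with the largest mean HDM effect among those called in both genotypes that had a promoter in the RefSeq table. Each sequence is the 250 bases before the start in mouse build GRCm38.p6, read 5′ to 3′ on the gene's strand. Capitals mark matches on either strand to the E2F-type motifs TTTNNCGC and TTNGCGC, which overlap each other. The positions are chr12:24708004-24708253 on the plus strand for Rrm2, chr1:128359706-128359955 on the minus strand for Mcm6, chr8:75109259-75109508 on the plus strand for Mcm5, chr11:117826015-117826264 on the minus strand for Tk1, and chr17:56303087-56303336 on the plus strand for Uhrf1, which has 2 windows in the table and is shown by the first.
Rrm2: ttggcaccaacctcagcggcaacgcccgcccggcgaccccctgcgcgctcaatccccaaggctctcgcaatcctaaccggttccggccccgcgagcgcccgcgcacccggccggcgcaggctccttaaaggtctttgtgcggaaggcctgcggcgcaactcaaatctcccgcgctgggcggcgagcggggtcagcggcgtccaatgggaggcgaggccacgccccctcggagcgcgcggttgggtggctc
Mcm6: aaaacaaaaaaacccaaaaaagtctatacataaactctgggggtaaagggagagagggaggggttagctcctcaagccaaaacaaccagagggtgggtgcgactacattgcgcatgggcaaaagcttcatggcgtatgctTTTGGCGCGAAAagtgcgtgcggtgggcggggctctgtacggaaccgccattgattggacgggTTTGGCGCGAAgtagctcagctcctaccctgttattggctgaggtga
Mcm5: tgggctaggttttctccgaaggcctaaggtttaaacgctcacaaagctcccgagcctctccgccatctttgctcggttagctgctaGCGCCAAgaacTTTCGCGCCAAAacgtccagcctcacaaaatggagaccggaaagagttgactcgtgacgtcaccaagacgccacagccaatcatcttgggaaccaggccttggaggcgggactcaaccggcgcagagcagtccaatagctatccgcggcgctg
Tk1: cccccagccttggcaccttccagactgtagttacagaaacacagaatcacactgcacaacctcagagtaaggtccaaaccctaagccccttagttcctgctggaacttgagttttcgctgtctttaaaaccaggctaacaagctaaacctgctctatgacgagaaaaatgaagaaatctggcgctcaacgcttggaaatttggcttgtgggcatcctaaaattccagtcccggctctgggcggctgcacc
Uhrf1: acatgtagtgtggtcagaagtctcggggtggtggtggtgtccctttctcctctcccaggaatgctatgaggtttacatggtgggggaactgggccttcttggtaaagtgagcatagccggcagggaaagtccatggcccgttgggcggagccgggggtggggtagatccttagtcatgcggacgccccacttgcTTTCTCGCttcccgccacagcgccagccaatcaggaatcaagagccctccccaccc

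The Mcm6 promoter held capital stretches that begin 110 and 47 bases before the start, Mcm5 had stretches at 164 and 153 bases, and Uhrf1 had one at 56 bases. Rrm2 and Tk1 had no match, which says only that these letters are not in the window. Over the whole table, windows ran from 250 bases before to 50 bases after the start, and 37 of the 45 genes had at least 1. An E2F-type match of either kind was present for 18 of these 37 genes (48.6%), against 17.1% of 11586 tested genes with a window and 11.2% of all 27025 genes in the table. TTTNNCGC alone was present for 37.8% of the replication genes, 8.89% of tested genes and 5.93% of all genes. The shares for TTNGCGC were 40.5%, 11.3% and 7.24%. The other motifs searched, also on both strands, were the CCAAT box (CCAAT), present for 59.5%, 41.8% and 41.1%, the GC box (GGGCGG), with 78.4%, 63.1% and 38.2%, and the CHR element (TTTGAA), with 10.8%, 14.9% and 20.2%. Among the 8 genes called after HDM in both genotypes that had a window, 5 held an E2F-type match, as did 10 of the 23 called in neither. A match is a string of letters and not a measured binding site.

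HDM was followed by higher signal of replication genes in both genotypes. In wild type 9 of the 40 genes rose and 0 fell, and in IL-13 KO 14 rose and 0 fell (limma, Benjamini-Hochberg adjusted p under 0.05 over all 31496 tested probe sets). At an unadjusted p under 0.05, 15 were higher and 0 lower in wild type, and 23 higher and 1 lower in KO, where 24% and 25.6% of all tested genes had such a p in either direction. Over all 14473 tested genes, each taken by 1 probe set, 5.4% were called higher and 5.15% lower in wild type, and 5.69% higher and 5.3% lower in KO. The 9 genes that rose in wild type also rose in KO: Cdt1, Mcm5, Mcm6, Mcm7, Gins2, Pcna, Rrm2, Tk1 and Uhrf1. Gmnn, Mcm3, Prim1, Fen1 and Ccne1 passed the threshold in KO alone, and 26 genes passed it in neither genotype. Differences are on the scale log2(signal + pseudocount), with a pseudocount of 7 on set A and 11 on set B, which understates a change at low signal. Passing in 1 genotype alone does not show a difference between genotypes, which was tested separately.

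The median log2 difference, HDM against PBS, over the 40 genes was 0.38 in wild type and 0.57 in KO, against -0.00 and 0.01 over all tested genes. It was positive for 38 of 40 in wild type and 36 of 40 in KO (49.7% and 50.9% of all tested genes). Single genes spanned -0.16 (Tyms) to 1.80 (Mcm6) for wild type and -0.65 (Orc1) to 2.38 (Rrm2) for KO. All 3 HDM samples lay above all 3 PBS samples for 16 genes in wild type and 30 in KO, where 13.2% and 17.2% of all tested genes did. The reverse held for 0 genes in wild type and for 1, Orc1, in KO, where 14.5% and 17.2% of all tested genes lay that way. Actin signal from 5′ probes over that from 3′ probes, a sign of RNA integrity, was lower in KO HDM (0.464 to 0.656 on set A) than in KO PBS (0.748 to 0.854) without overlap, and on set B the ranges (0.428 to 0.612, and 0.610 to 0.897) barely met. In wild type the ratio on set A overlapped, at 0.409 to 0.898 after PBS and 0.695 to 0.832 after HDM. Its part in the counts was not tested. The wild-type and KO comparisons share no arrays but share 1 estimate of each probe set's spread. In whole lung tissue, more cells of a dividing type and more RNA per cell cannot be told apart.

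**Figure D1:**
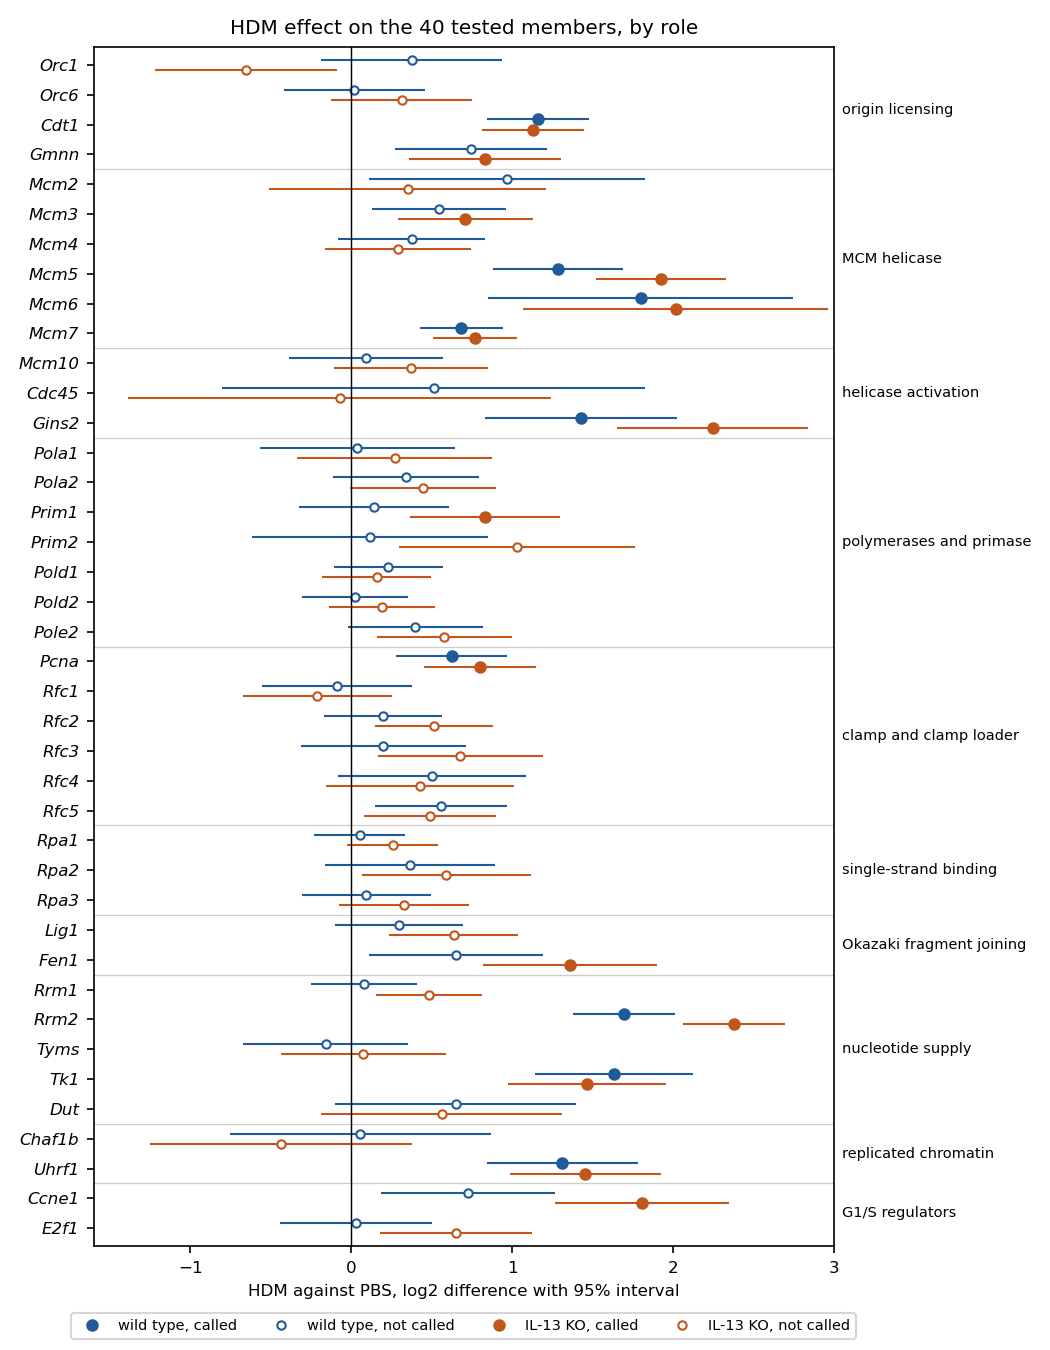
The log2 difference of HDM against PBS (x axis) with its 95% interval is shown for each of the 40 tested genes, grouped by role, in wild type (blue) and IL-13 KO (orange). Filled points passed an adjusted p of 0.05, 9 in wild type and 14 in KO, and all of these lie above 0.

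Among the genes that license origins, Cdt1 rose in both genotypes. Cdt1, which loads the MCM ring, had signals of 113, 109 and 112 in wild-type PBS samples and 292, 222 and 264 in wild-type HDM samples, and 149, 113 and 122 in KO PBS samples and 302, 287 and 275 in KO HDM samples. The HDM samples were above the PBS samples in both genotypes, by 1.16 ± 0.15 in wild type (log2 difference ± SE, adjusted p = 0.00045) and 1.13 ± 0.15 in KO (adjusted p = 0.00057). The mean of all Cdt1 probe sets gave 0.63 in wild type and missed the threshold (adjusted p = 0.058). Gmnn encodes geminin, the inhibitor that binds Cdt1 and prevents a second round of licensing. Its signals were 76.2, 53.1 and 40.4 in wild-type PBS samples and 95.1, 97.0 and 97.8 in wild-type HDM samples, and 67.0, 64.9 and 54.9 in KO PBS samples and 127, 94.97 and 129 in KO HDM samples. Both sets of HDM samples lay above their PBS samples. The difference passed in KO (0.83 ± 0.22, adjusted p = 0.034) and missed the threshold in wild type (0.74 ± 0.22, adjusted p = 0.06; 0.021 without wild-type PBS replicate 1). The KO call of Gmnn was lost without KO PBS replicate 1, 2 or 3 (adjusted p = 0.071, 0.07 and 0.12) and without KO HDM replicate 1 or 3 (0.11 and 0.12). Orc6, a subunit of the origin recognition complex, was not called, with 0.02 ± 0.20 in wild type and 0.31 ± 0.20 in KO.

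Orc1, the largest subunit of the same complex, has 2 probe sets with opposite directions in KO. Its brighter probe set, on set B, had 390.0, 411 and 330.2 in wild-type PBS samples and 699, 498 and 338 in wild-type HDM samples, and 513, 629 and 465 in KO PBS samples and 364, 230.4 and 443 in KO HDM samples, so the KO HDM samples lay below the KO PBS samples (-0.65 ± 0.26, adjusted p = 0.15). In wild type the groups overlapped (0.38 ± 0.26, adjusted p = 0.48). Its other probe set, on set A and under the filter, had mean signals of 23.2 after PBS and 27.1 after HDM for wild type and 16.9 and 29.2 for KO, with log2 differences of 0.12 in wild type and 0.58 in KO. Neither probe set was called.

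In the MCM ring, the helicase that unwinds DNA, Mcm5, Mcm6 and Mcm7 rose in both genotypes and Mcm3 in KO. Mcm5 had 366, 290.2 and 216 in wild-type PBS samples and 681, 634 and 824 in wild-type HDM samples, and 393, 277 and 273 in KO PBS samples and 1219, 1227 and 1179.5 in KO HDM samples. No HDM sample overlapped a PBS sample, and the differences were 1.28 ± 0.19 in wild type (adjusted p = 0.0012) and 1.93 ± 0.19 in KO (adjusted p = 7.3e-05). Mcm6 varied more between samples, with 37.3, 76.6 and 11.5 in wild-type PBS samples and 178, 91.8 and 151 in wild-type HDM samples, and 51.7, 36.3 and 45.8 in KO PBS samples and 169, 183 and 260.0 in KO HDM samples. Wild-type PBS replicate 3 was the lowest of the 12 samples for Mcm6. The differences were 1.80 ± 0.44 in wild type (adjusted p = 0.026) and 2.02 ± 0.44 in KO (adjusted p = 0.013). The wild-type call of Mcm6 was lost without wild-type PBS replicate 1 or 3 (adjusted p = 0.055 and 0.056) or wild-type HDM replicate 1 or 3 (0.085 and 0.091), and the KO call without KO HDM replicate 3 (0.06).

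Mcm7, another subunit of the ring, had 269, 258 and 246 in wild-type PBS samples and 423, 359 and 482 in wild-type HDM samples, and 296, 300.1 and 301 in KO PBS samples and 479, 537 and 534 in KO HDM samples. The differences were 0.69 ± 0.12 (adjusted p = 0.0039) and 0.77 ± 0.12 (adjusted p = 0.002), and the mean of its probe sets gave 0.37 in wild type (adjusted p = 0.099). Mcm3 had 99.6, 69.3 and 98.0 in wild-type PBS samples and 146, 107 and 145 in wild-type HDM samples, and 107, 86.1 and 101 in KO PBS samples and 167, 184 and 145 in KO HDM samples. In both genotypes the HDM samples lay above the PBS samples. The KO difference of Mcm3 was 0.71 ± 0.19 (adjusted p = 0.04), but it missed the threshold without any one of the 6 KO samples (adjusted p = 0.061 to 0.13), and the wild-type difference was 0.55 ± 0.19 (adjusted p = 0.12). Mcm4 (0.38 ± 0.21 and 0.29 ± 0.21) was not called. Mcm2 was not called on its brighter probe set, where the HDM samples ranged from 103 to 309 in wild type (PBS 71.2 to 126) and from 116 to 157 in KO (PBS 56.3 to 159).

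Of the factors that activate the helicase, Gins2 rose in both genotypes. Gins2, a subunit of the GINS complex, had 43.5, 58.9 and 34.6 in wild-type PBS samples and 93.1, 149.7 and 191 in wild-type HDM samples, and 38.7, 28.2 and 47.3 in KO PBS samples and 177, 215 and 275 in KO HDM samples. The lowest HDM sample was above the highest PBS sample in each genotype, with differences of 1.43 ± 0.27 (adjusted p = 0.0068) and 2.25 ± 0.27 (adjusted p = 0.00039). Mcm10, which helps to start unwinding, was not called (0.09 ± 0.22 and 0.37 ± 0.22). Cdc45, the third part of the working helicase, ranged from 22.5 to 177 over the PBS samples of both genotypes and from 28.6 to 127 over the HDM samples. That spread left wide intervals, -0.80 to 1.83 for wild type and -1.39 to 1.25 for KO.

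Of 7 tested genes of polymerases and primase, 0 passed in wild type and 1, Prim1, in KO. Prim1, the catalytic subunit of primase, which lays down RNA primers, had 90.3, 95.9 and 101 in wild-type PBS samples and 92.0, 102 and 127 in wild-type HDM samples, and 56.5, 97.3 and 85.2 in KO PBS samples and 119, 149 and 167 in KO HDM samples. The groups overlapped in wild type (0.14 ± 0.21, adjusted p = 0.79) and not in KO (0.83 ± 0.21, adjusted p = 0.031). On another Prim1 probe set, under the filter, the groups overlapped in both genotypes, with 0.14 in wild type and 0.16 in KO. The KO call of Prim1 was lost without KO PBS replicate 1 or 3 (adjusted p = 0.11 and 0.063) or KO HDM replicate 2 or 3 (0.092 and 0.12). Prim2, the other primase subunit, had a larger KO difference with more spread on its brightest probe set (1.03 ± 0.34, adjusted p = 0.083; 0.038 without wild-type HDM replicate 2). Other tested Prim2 probe sets had 0.35 and 0.49 in wild type and 0.45 and 0.41 in KO, and were not called. Pola1 and Pola2 of polymerase alpha, Pold1 and Pold2 of polymerase delta and Pole2 of polymerase epsilon had differences between 0.02 (Pold2) and 0.40 (Pole2) in wild type and between 0.16 (Pold1) and 0.58 (Pole2) in KO, and were not called.

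Pcna was the 1 of the 6 clamp and clamp loader genes that rose. Pcna encodes the sliding clamp that holds polymerases on DNA and had 686, 558 and 475 in wild-type PBS samples and 1004, 754 and 894 in wild-type HDM samples, and 592, 442 and 543 in KO PBS samples and 999.6, 839.9 and 912 in KO HDM samples. HDM and PBS samples did not overlap, and the differences were 0.63 ± 0.16 (adjusted p = 0.032) and 0.80 ± 0.16 (adjusted p = 0.0085). The wild-type call of Pcna was lost without wild-type PBS replicate 2 or 3 (adjusted p = 0.083 and 0.11) or wild-type HDM replicate 1 or 3 (0.11 and 0.098), with equal array medians (0.059), with no intensity trend (0.061) and with array weights (0.051). The 5 subunits of the clamp loader, Rfc1 to Rfc5, were not called. Rfc1, the large subunit, had -0.09 and -0.21 in wild type and KO, while Rfc2 to Rfc5 had differences of 0.20 to 0.56 in wild type and 0.43 to 0.68 in KO. Rfc2 passed in KO without KO PBS replicate 2 (adjusted p = 0.018).

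The 3 subunits of RPA, which coats single-stranded DNA, were not called, with differences of 0.05 (Rpa1) to 0.37 (Rpa2) in wild type and 0.26 (Rpa1) to 0.59 (Rpa2) in KO. In KO all HDM samples of the 3 genes lay above all PBS samples on these probe sets. A second tested Rpa2 probe set went the other way, with -0.15 in wild type and -0.32 in KO, not called. On it every KO HDM sample lay below every KO PBS sample. Fen1, the nuclease that trims Okazaki fragments, had 237, 244 and 134 in wild-type PBS samples and 359, 234 and 372 in wild-type HDM samples, and 214, 211 and 193 in KO PBS samples and 455, 480.0 and 723 in KO HDM samples. The groups overlapped in wild type (0.65 ± 0.25, adjusted p = 0.15) and did not in KO (1.36 ± 0.25, adjusted p = 0.0052). Lig1, the ligase that seals the fragments, just missed the threshold in KO (0.64 ± 0.18, adjusted p = 0.052), and passed without KO PBS replicate 2 (0.028) or wild-type PBS replicate 3 (0.041).

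Among the 5 genes of nucleotide supply, Rrm2 and Tk1 rose in both genotypes while Rrm1, Tyms and Dut were not called. Rrm2, the regulated small subunit of ribonucleotide reductase, which makes deoxynucleotides, had 76.8, 72.5 and 72.9 in wild-type PBS samples and 290.1, 218 and 265 in wild-type HDM samples, and 72.5, 63.0 and 77.5 in KO PBS samples and 417, 389 and 388 in KO HDM samples. The PBS samples of both genotypes lay close together, from 63.0 to 77.5, and the KO HDM samples lay above the wild-type HDM samples. Rrm2 had the smallest adjusted p of the 40 genes in both genotypes, with differences of 1.70 ± 0.15 (3.24-fold, adjusted p = 2.5e-05) and 2.38 ± 0.15 (5.20-fold, adjusted p = 3.6e-06). Its partner Rrm1, the large subunit, had 0.08 ± 0.15 in wild type and 0.48 ± 0.15 in KO (adjusted p = 0.071). A second tested Rrm1 probe set had 0.59 in wild type and 0.46 in KO and was not called.

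Tk1, the thymidine kinase of the salvage pathway, had 48.1, 26.3 and 38.5 in wild-type PBS samples and 123, 139 and 124 in wild-type HDM samples, and 39.7, 31.3 and 33.7 in KO PBS samples and 90.6, 102 and 138 in KO HDM samples. The differences were 1.63 ± 0.23 (adjusted p = 0.00083) and 1.47 ± 0.23 (adjusted p = 0.0018). Tyms, thymidylate synthase, had -0.16 ± 0.24 and 0.08 ± 0.24, and Dut, which removes dUTP, had 0.65 ± 0.34 and 0.56 ± 0.34. For Tyms the 95% intervals lay within a doubling in either direction, and for Dut they did not.

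Uhrf1, which binds hemimethylated DNA behind the fork and brings in the maintenance methyltransferase, had 30.7, 28.5 and 16.6 in wild-type PBS samples and 75.0, 68.0 and 71.9 in wild-type HDM samples, and 25.5, 23.2 and 29.3 in KO PBS samples and 81.5, 94.0 and 75.4 in KO HDM samples. Every HDM sample was above every PBS sample, with differences of 1.31 ± 0.22 (adjusted p = 0.0026) and 1.46 ± 0.22 (adjusted p = 0.0015). Chaf1b, a subunit of the chromatin assembly factor that deposits histones on new DNA, was not called (0.06 ± 0.37 and -0.44 ± 0.37). A second tested Chaf1b probe set, on set A, had 0.42 in wild type and 0.34 in KO, and was not called.

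Ccne1 encodes cyclin E1, which drives cells into S phase, and had 92.6, 156 and 117 in wild-type PBS samples and 256, 189.9 and 177 in wild-type HDM samples, and 97.5, 61.8 and 135 in KO PBS samples and 352, 331 and 389 in KO HDM samples. HDM samples were above PBS samples in both genotypes. The difference passed in KO (1.81 ± 0.25, adjusted p = 0.00095) and missed the threshold in wild type (0.73 ± 0.25, adjusted p = 0.11). E2f1, an activating E2F factor, had 0.03 ± 0.22 in wild type and 0.65 ± 0.22 in KO (adjusted p = 0.087; 0.048 without wild-type PBS replicate 3) and was not called. Its other probe sets, under the filter, had 0.89 and -0.15 in wild type and 1.34 and 0.68 in KO, and were not called.

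**Figure D2:**
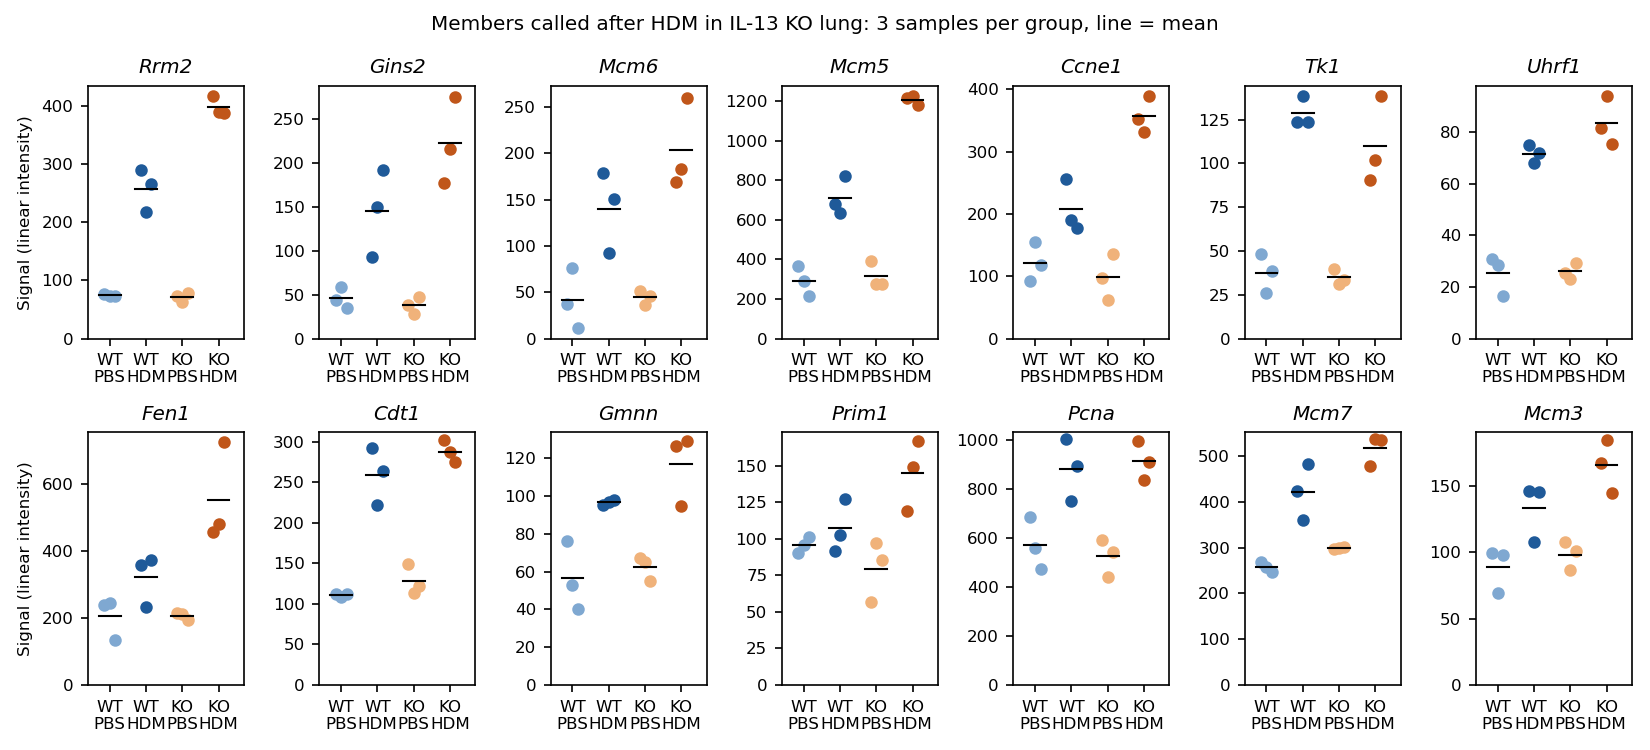
Signal (linear intensity, y axis from 0) in each of the 12 samples for the 14 genes called after HDM in IL-13 KO, with a line at the mean of the 3 samples of a group. For Rrm2 the PBS samples lie between 63.0 and 77.5 and the KO HDM samples between 388 and 417.

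Genes that were not called are not shown to be flat. For 24 of the 31 uncalled genes in wild type and 15 of 26 in KO the 95% interval of the difference lay within a doubling in either direction. The remaining intervals reached beyond it.

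The 4 genes under the filter had low signal and were fitted again with no filter. Pole, the catalytic subunit of polymerase epsilon, had 4.09, 5.46 and 2.99 in wild-type PBS samples and 9.21, 8.77 and 7.18 in wild-type HDM samples, and 5.64, 2.78 and 2.72 in KO PBS samples and 32.4, 24.8 and 21.7 in KO HDM samples. KO HDM samples stood above all others, and Pole rose in KO (1.63 ± 0.19, adjusted p = 0.00037) and was not called in wild type (0.46 ± 0.19, adjusted p = 0.22). Between the HDM groups Pole was higher in KO by 1.10 ± 0.19 (adjusted p = 0.026), while the difference between the 2 HDM effects was not called (1.17 ± 0.26, adjusted p = 0.35). At signals this close to the pseudocount of 7 the log2 scale understates a change. Cdc6, the loader that works with Cdt1, ranged from 3.42 to 19.1 over all PBS samples and from 15.4 to 34.6 over all HDM samples, and was not called (0.77 ± 0.32, adjusted p = 0.25, and 1.14 ± 0.32, adjusted p = 0.064). Gins1 (0.75 ± 0.33 and 0.67 ± 0.33) and the second E-type cyclin, Ccne2 (0.24 ± 0.21 and 0.60 ± 0.21), were not called.

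The 44 genes had 95 probe sets of their own, of which 69 passed the filter. Of these 17 were called higher in wild type and 23 in KO, and 0 were called lower in either. Counting a gene as called when any of its tested probe sets was called gave 12 genes in wild type and 15 in KO. All 3 probe sets of Rrm2 and both of Gins2 rose in both genotypes. The second Mcm2 probe set rose by 0.93 and 1.03 (adjusted p = 0.0037 and 0.0021), where the brighter one had 0.97 ± 0.40 and 0.35 ± 0.40 and was not called. The second Fen1 probe set rose by 1.06 in wild type and 1.03 in KO (adjusted p = 0.0035 and 0.0044). One further probe set of Mcm3 rose by 0.82 and 0.96 (adjusted p = 0.028 and 0.012), and another of Mcm5 by 1.03 and 1.21 (0.0063 and 0.0024).

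Other probe sets differed from the brightest one. Mcm7 had one that rose by 0.65 and 0.93, and others with -0.13 and 0.58 and with 0.28 and 0.38, not called. Further tested probe sets of Mcm3 had 0.20 and 0.59, and -0.17 and 0.48, and one of Mcm5 had -0.06 and 0.52. None of these was called. A second Mcm10 probe set, on set B, had -0.93 in wild type and -0.99 in KO (adjusted p = 0.32 and 0.25). The Cdc45 probe set on set A lay under the filter and rose by 1.52 in KO (adjusted p = 0.034 with no filter) and not in wild type (0.41, adjusted p = 0.68), while the one on set B had -0.07 in KO. The files do not say which part of a transcript each probe set reads.

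**Figure D3:**
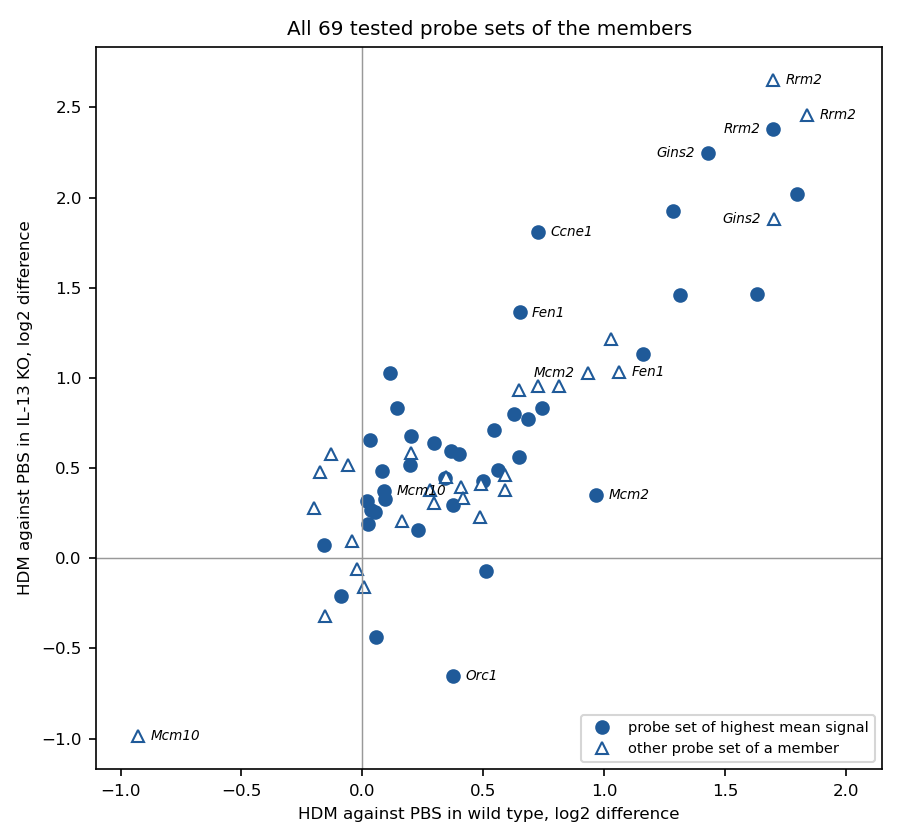
Each point is 1 of the 69 tested probe sets of the replication genes, placed by its log2 difference of HDM against PBS in wild type (x axis) and in IL-13 KO (y axis). Filled circles are the brightest probe set of a gene and open triangles its other probe sets, and the 3 points of Rrm2 lie together at the upper right.

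The whole gene group was read per sample as the mean, over the 40 genes, of each gene's log2 deviation from its own mean over the 12 samples. These means were -0.32, -0.27 and -0.35 in wild-type PBS, 0.32, 0.07 and 0.23 in wild-type HDM, -0.25, -0.40 and -0.24 in KO PBS, and 0.36, 0.41 and 0.44 in KO HDM. All 6 HDM samples lay above all 6 PBS samples. Wild-type HDM replicate 2 was the lowest HDM sample, and was the lowest of its group for 25 of the 40 genes and the highest for 3. It is also the sample with the highest signal of the skeletal muscle gene Tnnc2 (988), which also stood out in wild-type PBS replicate 2 (413) and wild-type HDM replicate 1 (198), against less than 7 elsewhere. With these 3 samples left out, 1 wild-type HDM sample remained, its spread assumed to be that of the other groups. Then 6 genes rose in wild type, and Pcna (adjusted p = 0.22), Tk1 (0.059) and Uhrf1 (0.073) no longer passed. In KO, whose samples were all kept, Gmnn (adjusted p = 0.072) and Prim1 (0.054) no longer passed.

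**Figure D4:**
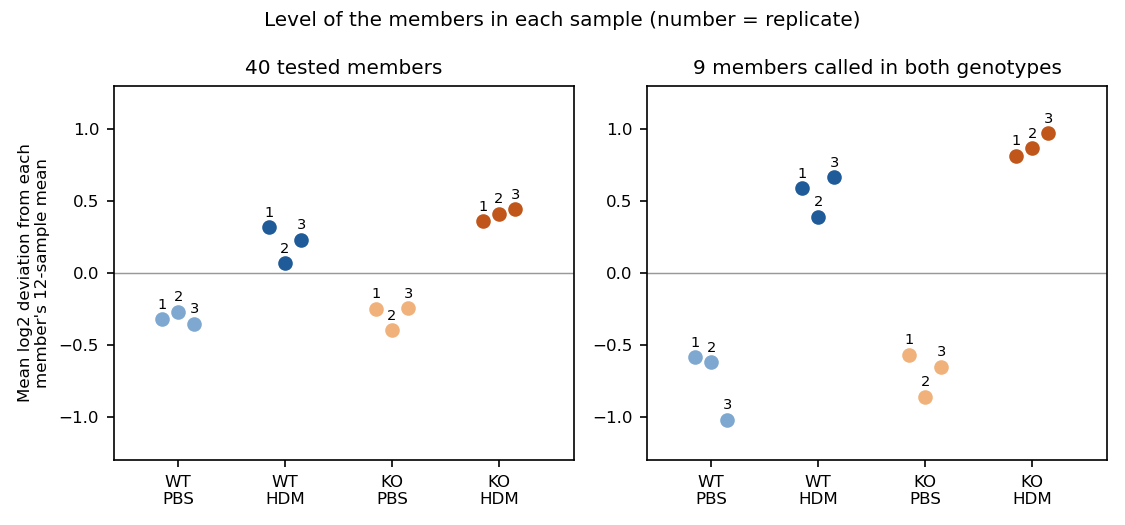
Mean log2 deviation of the replication genes from their own 12-sample means (y axis) in each sample, by group, over the 40 tested genes (left) and the 9 genes called in both genotypes (right). Numbers above the points are replicate numbers, and the KO HDM samples lie between 0.36 and 0.44 on the left.

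Lists of further genes of the same process were read beside these. Of 35 other replication genes 3 rose and 1 fell in wild type, and 2 rose and 0 fell in KO. Over all tested genes 5.4% were called higher and 5.15% lower in wild type, and 5.69% and 5.3% in KO. The numbers that rose among the other replication genes were near these shares, which also stand beside the lists below. Asf1b, a histone chaperone, rose by 1.07 ± 0.20 and 0.97 ± 0.20 (adjusted p = 0.0067 and 0.011), and Clspn, an adaptor of the replication checkpoint, by 0.68 ± 0.17 and 1.04 ± 0.17 (0.028 and 0.0026). Atad5, which unloads PCNA, rose in wild type (0.80 ± 0.21, adjusted p = 0.037). Rrm2b, the p53-induced counterpart of Rrm2, fell in wild type (-0.85 ± 0.20, adjusted p = 0.019) and had -0.44 ± 0.20 in KO (adjusted p = 0.21).

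Of 22 genes of E2F factors, RB proteins and G1 cyclins, 2 rose in wild type and 5 in KO, and 0 fell. Ccna2, cyclin A2 of S phase, rose by 0.91 ± 0.24 and 1.35 ± 0.24 (adjusted p = 0.041 and 0.0049), and Fbxo5, an inhibitor of the anaphase-promoting complex, by 0.96 ± 0.25 and 1.22 ± 0.25 (0.037 and 0.01). E2f7, a repressive E2F, and Tfdp1, the partner of E2F proteins, rose in KO (0.64 ± 0.16 and 0.61 ± 0.14, adjusted p = 0.028 and 0.02). Of 6 inhibitors of cyclin-dependent kinases, 0 rose, 1 fell in wild type and 2 fell in KO. Cdkn1c fell (-1.08 in wild type and -1.003 in KO, adjusted p = 0.0033 and 0.0053), and Cdkn2b fell by 0.66 in KO (0.0087).

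Of 10 mitosis genes 9 rose in wild type and 9 in KO. Mki67, the proliferation antigen, had a mean signal of 46.8 after PBS and 201 after HDM for wild type and of 34.6 and 279.6 for KO (1.94 ± 0.18 and 2.78 ± 0.18, adjusted p = 4.5e-05 and 4.5e-06). Cdk1, the mitotic kinase, rose by 1.69 ± 0.26 and 2.81 ± 0.26, Birc5 by 1.77 ± 0.22 and 2.78 ± 0.22, and Top2a by 1.06 ± 0.15 and 1.54 ± 0.15. The median difference of the mitosis genes was 1.18 in wild type and 1.61 in KO, that of the other replication genes 0.17 and 0.27, and that of the E2F, RB and cyclin list 0.12 and 0.15.

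Many but not all markers of immune cells rose with the replication genes. Of 7 B cell markers 5 rose in wild type and 4 in KO, of 8 plasma cell markers 4 and 4, of 8 T cell markers 3 and 5, and of 9 macrophage markers 5 and 5, while 0 of these fell. The summed B cell signal was 950.2 to 1126 in wild-type PBS, 2041 to 3369 in wild-type HDM, 1339 to 1589 in KO PBS and 2409 to 2899 in KO HDM. Summed macrophage signal was 2359 to 2921 and 5283 to 6717 in wild type, and 2446 to 2842 and 4949 to 5568 in KO. Plasma cell markers summed to 4005 to 5749 and 14155 to 21142 in wild type and 3573 to 6992 and 25474 to 30498 in KO. T cell markers summed to 835 to 914 and 1109.9 to 1685 in wild type and 1017 to 1144 and 1729 to 1948 in KO. Each of these sums, taken over all markers of the list on the arrays, was higher in every HDM sample than in every PBS sample of the genotype, and the sums were not tested. The markers of smallest adjusted p in each list follow, with log2 differences in wild type and KO. The B cell genes Blnk (2.07 and 2.02), Ms4a1 (1.39 and 1.12), Cd22 (1.14 and 0.93) and Cd79b (1.07 and 0.83) rose in both genotypes. Of the plasma cell genes, Jchain (3.54 and 4.01), Igha (3.49 and 3.60), Mzb1 (3.02 and 3.94) and Tnfrsf17 (1.59 and 2.14) rose in both. Tnfrsf17 only just passed in wild type, with an adjusted p that rounds to 0.05. The T cell genes Cd4 (1.67 and 1.61), Cd3g (0.96 and 1.01) and Thy1 (0.94 and 1.06) rose in both, and Cd5 rose in KO (1.03, and 0.50 in wild type). The macrophage genes Itgax (2.34 and 1.42), Cd68 (1.76 and 1.57), Mrc1 (1.68 and 1.63) and Adgre1 (0.90 and 1.20) rose in both. The plasma cell genes Ighm (2.46 and 2.31), Xbp1 (0.29 and 0.50), Prdm1 (-0.07 and 0.01) and Sdc1 (-0.33 and -0.17) were called in neither genotype. The same held for the macrophage genes Mertk (0.05 and -0.08), Marco (0.22 and -0.44), Siglecf (0.03 and 0.02) and Fabp4 (0.43 and -0.925). Also called in neither were the T cell genes Cd8a (0.03 and 0.10), Cd2 (0.62 and 0.65) and Cd3d (1.27 and 0.86). Among B cell genes, Pax5 (0.47 and -0.03) and Fcrla (0.46 and 0.57) were called in neither.

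Thymocyte markers, 0 of 4 of which were called, summed to 507 to 616 in PBS samples and 563 to 689 in HDM samples. Cd1d1 had -0.43 in wild type and 0.06 in KO, and Themis 0.37 and 0.09. Of 2 erythroid markers 1 fell in wild type and 2 in KO, Alas2 (-1.27 and -1.68) in both and Slc4a1 in KO (-1.59, and -0.32 in wild type). Lung epithelial and endothelial markers were present in all samples, with summed signals of 29643 to 49104, and 5 of 10 fell in wild type and 3 in KO. Aqp5 (-1.22 and -1.07), Cdh5 (-0.75 and -0.51) and Pecam1 (-0.54 and -0.61) fell in both, and Sftpb in wild type (-0.52, and -0.35 in KO). Skeletal muscle markers summed to 235 to 5927, with 0 of 5 called. Myh4 had 0.38 in wild type and -0.72 in KO, and Pvalb 0.55 and 0.70. No marker of these lists was listed at 0. The part of the cell types in the replication gene results was not tested.

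The question of whether lack of IL-13 changes the replication response was tested as the difference between the 2 HDM effects, KO minus wild type. None of the 40 genes was called (0 by limma, 5 at an unadjusted p under 0.05, smallest adjusted p = 0.66), where 0.159% of all tested genes were called and 6.12% had such an unadjusted p. The median of this difference was 0.19 against 0.02 for all tested genes, and 28 of the 40 were positive (53.1% of all tested genes). The 95% interval, not adjusted for the number of genes, lay above 0 for Ccne1 (1.08 ± 0.35, interval 0.31 to 1.85), Rrm2 (0.68 ± 0.21, interval 0.23 to 1.13), Prim1 (0.69 ± 0.30) and Mcm5 (0.64 ± 0.26). It lay below 0 for Orc1 (-1.03 ± 0.37) on its set B probe set. On other tested probe sets the difference was 0.61 and 0.95 for Rrm2, and 0.18 and 0.57 for Mcm5. On probe sets under the filter it was -0.03 for Ccne1, 0.01 for Prim1 and 0.46 for Orc1. Of the 40 intervals 24 lay within a doubling in either direction. The others reached beyond it.

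In lung treated with PBS no replication gene was called between the genotypes. In KO against wild type, 0 of 40 were called by limma and 0 had an unadjusted p under 0.05, where 0.0207% of all tested genes were called and 7.48% had such an unadjusted p. The median difference was -0.04, and 18 of the 40 were positive. All 3 KO samples lay above all 3 wild-type samples for Cdt1, Mcm7 and Orc1, and below them for Orc6, with differences from -0.26 (Orc6) to 0.49 (Orc1). Of all tested genes 6.55% lay above and 5.82% below in that way, so these counts were near the background.

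After HDM, 35 of the 40 genes had a higher mean log2 level in KO than in wild type (53.6% of all tested genes did), and the median difference was 0.18 against 0.02. None was called (0 by limma, 7 at an unadjusted p under 0.05, all higher in KO). Of all tested genes 0.677% were called, and 9.86% had such an unadjusted p in either direction. The 7 were Rrm2 (0.62 ± 0.15, adjusted p = 0.12), Mcm5 (0.76 ± 0.19, 0.15), Fen1 (0.77 ± 0.25, 0.35), Ccne1 (0.77 ± 0.25, 0.35), Rpa2 (0.65 ± 0.24, 0.46), Mcm7 (0.30 ± 0.12, 0.51) and Gins2 (0.61 ± 0.27, 0.57). Other probe sets of these genes gave mixed values. Those tested had 0.49 and 0.72 for Rrm2, 0.24 and 0.38 for Mcm5, and 0.22, 0.69 and 0.30 for Mcm7. Fen1 had 0.07, Rpa2 -0.04 and Gins2 -0.01 on theirs, and Ccne1 had 0.42 on one under the filter. All 3 KO samples lay above all 3 wild-type samples for 10 genes (Ccne1, E2f1, Fen1, Mcm5, Pold2, Prim2, Rfc3, Rpa2, Rrm2 and Uhrf1), as they did for 9.6% of all tested genes, and below them for Chaf1b (7.35% of all tested genes). On the second tested Chaf1b probe set the groups overlapped, with a difference of 0.03.

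Several other measures differed between the 2 HDM groups in the same samples. The actin ratio was 0.464 to 0.656 in KO HDM and 0.695 to 0.832 in wild-type HDM on set A, and 0.428 to 0.612 against 0.643 to 0.851 on set B, without overlap. The ratio for Gapdh overlapped. Summed signals of mitosis genes (1867 to 1946 in KO HDM, 1398 to 1616 in wild-type HDM), plasma cell markers (25474 to 30498, and 14155 to 21142) and T cell markers (1729 to 1948, and 1109.9 to 1685) were higher in KO HDM without overlap, and those of B cells and macrophages overlapped. Igha, the IgA heavy chain, was higher in KO after HDM (1.66, adjusted p = 0.019). After PBS the KO difference of Igha was 1.55, not called, and its 2 HDM effects differed by 0.11. The T cell sums were also higher in KO after PBS without overlap (1017 to 1144, and 835 to 914 in wild type). Plasma cell sums overlapped after PBS, and mitosis sums were lower in KO (469 to 502, and 516 to 616 in wild type). The part of these measures in the difference between the HDM groups was not tested.

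**Figure D5:**
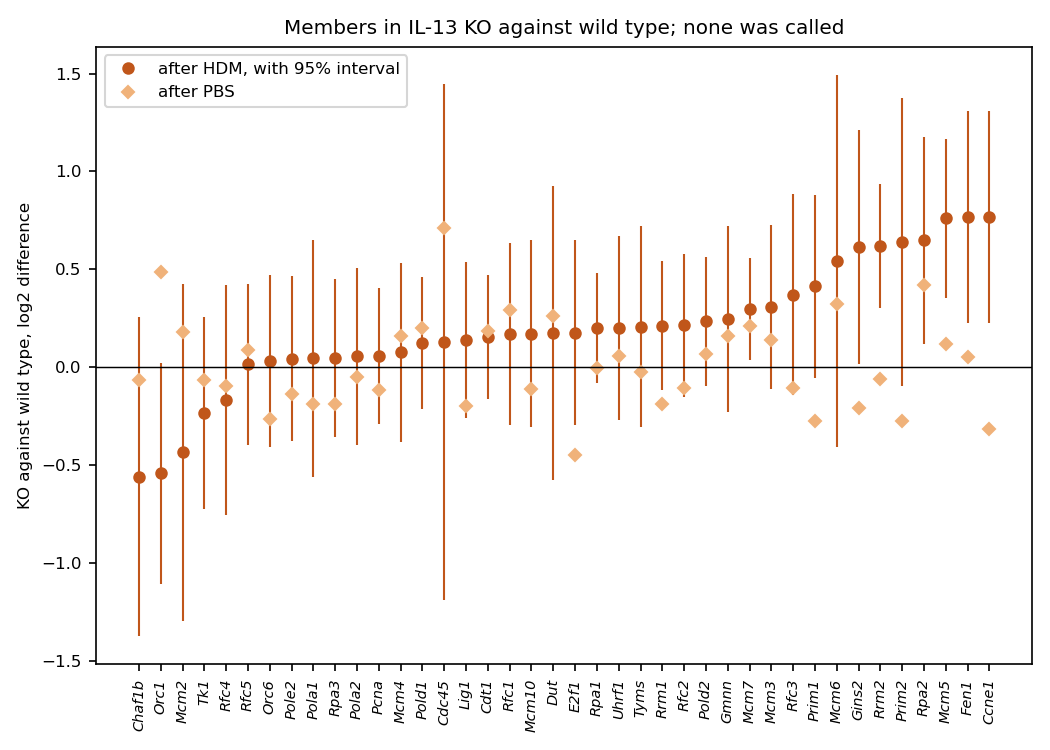
The log2 difference of IL-13 KO against wild type for the 40 tested genes, after HDM (circles with 95% intervals) and after PBS (diamonds), ordered by the difference after HDM. After HDM 35 of 40 circles lie above 0, from -0.56 for Chaf1b to 0.77 for Ccne1, and none passed the adjusted threshold.

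The arrays had medians of 69.5 to 77.7 (set A) and 83.5 to 93.7 (set B), and samples of the same group correlated with a Spearman rho of 0.962 to 0.98 (set A) and 0.887 to 0.927 (set B). Of the 44 genes 35 were read on set A and 9 on set B. Il13, the targeted gene, lay under the filter in all groups, with 4.65 to 12.1 in wild-type PBS, 15.5 to 29.9 in wild-type HDM, 3.30 to 9.45 in KO PBS and 8.71 to 15.5 in KO HDM. These ranges overlapped or nearly met, so the targeted gene gives no firm check of the labels at these signals.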

How the data were processed

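Total RNA of 12 lung samples was hybridised to Affymetrix array sets A and B (24 arrays). The deposited values are linear intensities, 1 per probe set and array, which the authors had scaled, since every array had the same mean, 150, once 2% of values were trimmed at each end. The software behind them is not given in the sources used here, no detection calls were used, and the number of arrays limits the precision. Samples, groups and array pairs were read from the titles.

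Intensities were taken as log2(value + pseudocount), the pseudocount being the 10th percentile of a set (7 and 11). Control probe sets and those under the 30th percentile of mean log2 value were left out and 100 probe sets shared by both sets were taken from set A, leaving 15838 and 15658. One model with 4 group means (8 residual degrees of freedom) was fitted with limma 3.58.1 in R 4.3.3, with eBayes and an intensity trend. Within each of 5 comparisons p-values were Benjamini-Hochberg adjusted over all 31496 probe sets at 0.05. The fit was tested on simulated data.

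Probe sets were named through the platform annotation, and promoters came from RefSeq (GRCm38.p6). All 45 genes are described, and from each further list up to 4 called genes of smallest adjusted p, or 2 of smallest p where none was called. The genes and lists were chosen with earlier results of these data known. Alternatives covered the pseudocount, filter, normalization, trend, array weights, fitted groups, adjustment, probe set choice, replicate block, samples with muscle signal and each left-out sample. Same-numbered samples did not deviate together (r = -0.09 to 0.17), so no pairing was used.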

Additional observations from a re-analysis of the deposited data

Results flagged for a closer look

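The macrophage integrin Itgax, read here only as a marker, had an HDM effect that differed between genotypes by a direct test: it rose by 2.34 in wild type and 1.42 in IL-13 KO, an interaction of -0.92 on the log2 scale (limma, adjusted p = 0.047). No replication gene was called by this test, which does not show that their HDM effects were equal. Groups of 3 samples are too small for the check on single outlying samples.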

How the results depend on the processing

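No called difference of a replication gene changed sign in any alternative run. Of 200 gene differences over the 5 comparisons, 74 that were not called changed sign under at least 1 alternative (165 values in all), and the median between genotypes after PBS moved from -0.05 to 0.03. With no filter on low values, 1 gene, Pole, was called higher in IL-13 KO than in wild type after HDM, where the main setting had 0. Leaving out each sample in turn gave 7 to 9 genes higher in wild type and 10 to 16 in KO, 0 lower in either, 0 called for the difference between the HDM effects, and 0 for KO against wild type after PBS or HDM. The medians over the genes then ranged from 0.32 to 0.48 in wild type, 0.50 to 0.60 in KO, 0.09 to 0.24 for the difference between effects, -0.05 to 0.02 between genotypes after PBS and 0.15 to 0.23 after HDM. The other settings gave 6 to 10 genes in wild type and 12 to 16 in KO. With the mean of each gene's probe sets, 36 genes were tested, Mcm2, Fen1 and Ccne1 passed in wild type and Cdt1, Mcm6 and Mcm7 did not, and in KO E2f1 passed while Mcm3 and Prim1 did not. Fitted on the 2 groups compared alone, Mcm6 and Pcna missed the threshold in wild type and Prim1 in KO, where Prim2 passed. With no filter Gmnn (adjusted p = 0.051) and Mcm3 (0.052) missed the threshold in KO, as Gmnn did after quantile normalization (0.051). The titles number the samples 1 to 3 in each group, but 4 of 12 samples correlated best with their own number, so the numbers were not taken to pair samples. With the replicate block 9 genes were called in wild type and 14 in KO, as without it.

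Over all probe sets, the counts called moved more. In wild type the range was 979 (without the muscle samples) to 2505, in KO 1549 to 3531, for the difference between effects 1 to 35 (11 with the replicate block), between genotypes 2 to 20 after PBS and 30 to 197 after HDM. The cause was not tested.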
